A study of Mus musculus with 18 samples.

Results

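The 10 genes described here are targets of Wnt and β-catenin in pericentral hepatocytes, some of which feed back on the pathway, and they were read gene by gene in *Alb-R26Met* tumors and livers. They were taken by symbol (Glul, Axin2, Lgr5, Tbx3, Nkd1, Notum, Rnf43, Znrf3, Sp5 and Slc1a2), and 10 of 10 were among the 28442 genes of the table. Bulk RNA-seq covered 6 livers from mice that had not developed tumors and 12 advanced liver tumors, 18 samples from 17 mice, since tumors 11 and 12 came from 1 mouse. All mice were Alb-R26Met males, bred as F1 from R26stopMet mice on C57BL/6JRj and Alb-Cre mice on 129S2/SvPasOrlRj, and both groups carried a mouse-human chimeric *Met* transgene at *Rosa26* that Cre under the albumin promoter switches on in the liver. The livers are therefore mutant and tumor-free rather than wild type, and no group without the transgene was analysed here. Livers came from mice 52 to 71 weeks old (median 56.5) and tumors from mice 49 to 72 weeks old (median 65). One tumor, tumor 10, was set apart from the other 11 when the genes were chosen, and its values are given as a description without a test.

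Hepatocytes differ along the path of blood from the portal vein to the central vein. Endothelial cells of the central vein secrete Wnt ligands and the R-spondin RSPO3, and the hepatocytes nearest to them keep β-catenin active and express glutamine synthetase, while hepatocytes around the portal vein make urea and glucose. In the nucleus β-catenin binds TCF/LEF factors on target genes, and several of these targets, Axin2, Nkd1, Notum, Rnf43 and Znrf3 among them, encode inhibitors that restrain the same pathway.

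The values were read as TPM rounded to whole numbers (the deposited table is named for counts), a gene's share of all transcripts in a sample corrected for transcript length, so that levels can be compared between genes. The reads behind a value are not kept, a listed 0 can be any TPM below the rounding limit, and no counting error can be given. The 6 livers summed to totals from 835144 to 884597, and the 12 tumors to totals from 845356 to 907513. One gene, Siglece, took 17.9 to 29.5% of the total in livers, 21.5 to 53.4% in 11 tumors and 82.9% in tumor 2, so that tumor 2 received a scaling factor of 0.195 against 0.790 to 1.42 in the other samples. Of the tumors other than tumor 10, tumor 2 had the lowest deposited TPM in many genes named below, among them Glul, Cyp2e1, Cps1 and Ctnnb1. Such low ends are not corrected for its Siglece share. Liver 1 and tumor 10 also stood apart in the genes described here. For the 10 genes, and for the other genes called, a single sample whose omission ends a call is therefore named beside it. Where omissions instead take a gene below the filter on low values, the number of fits that could test it is given. Summed values of 5 hepatocyte markers (Alb, Apoa1, Ttr, Apob and Tat) were 37640 to 49880 TPM in livers, 10320 to 76730 TPM in the 11 tumors (lowest in tumor 2) and 37570 TPM in tumor 10.

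The stretches before RefSeq start sites of Sp5 and Slc1a2 are shown because they hold the letters that TCF/LEF factors are known to bind, and because both genes stood far above every other sample in tumor 10. RefSeq promoter windows on GRCm38.p6 were at hand for 6 of the 10 genes (Glul, Axin2, Nkd1, Rnf43, Sp5 and Slc1a2). Capitals mark 4 words, each searched on both strands of the 250 bases before a start. These were CTTTGAA and, differing from it in the last letter, CTTTGAT, followed by the variant CTTTGTA and, again with another last letter, CTTTGTT. No match overlapped another match in the windows printed. Sp5 (chr2:70474673-70474922, plus strand) holds CTTTGTT on the opposite strand and CTTTGAT on the gene's own strand.
Sp5: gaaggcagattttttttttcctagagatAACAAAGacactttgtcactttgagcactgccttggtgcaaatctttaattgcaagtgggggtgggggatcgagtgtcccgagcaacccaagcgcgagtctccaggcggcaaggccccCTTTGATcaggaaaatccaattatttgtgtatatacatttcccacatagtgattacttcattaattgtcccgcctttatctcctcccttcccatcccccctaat
Slc1a2 (chr2:102706188-102706437, plus strand) holds CTTTGAT on the opposite strand. This start lies 47779 bases inside the gene as GENCODE places it, so the stretch is not the one before the gene's first base.
Slc1a2: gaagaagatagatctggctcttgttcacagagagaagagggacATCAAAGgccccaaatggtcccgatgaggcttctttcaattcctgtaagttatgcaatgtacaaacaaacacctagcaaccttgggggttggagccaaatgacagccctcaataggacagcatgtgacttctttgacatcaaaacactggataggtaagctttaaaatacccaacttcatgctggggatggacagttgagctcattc
The windows of Glul, Axin2, Nkd1 and Rnf43 hold none of these words. The start used for Nkd1 lies 6279 bases inside the gene as GENCODE places it, and those for Rnf43 lie 365 and 37175 bases inside. Of 32851 such windows in the table, 14.8% hold at least 1 word and 1.43% hold at least 2. A match is a description of these letters and not a binding site.

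Tumors without tumor 10 were lower than livers in most of the genes, and tumor 10 was the highest of all 18 samples in 10 of 10. Among the 11708 genes tested, which do not include Lgr5 and Sp5, tumor 10 is the highest sample in 8.90%, and it is so in all 8 of the targets tested. As tumor 10 was set apart with earlier results known, that share describes it and is not a test. With all 12 tumors in the comparison, limma called 3 of the 8 genes that passed the filter on low values (Axin2, Tbx3 and Notum), all of them lower in tumors. Over all genes tested, 9.28% were called lower and 9.77% higher. Without tumor 10, limma called 6 of 8 lower (Glul, Axin2, Tbx3, Nkd1, Notum and Slc1a2), against 9.12% of 11395 genes. Tumor 10 was set apart with earlier results of these data known, and leaving out the highest sample moves each of these differences down. The p-values without it are therefore not a separate test of these genes. None of the 8 was called higher in any setting run. The median log2 fold change of the 8 was -1.49 with tumor 10 and -1.89 without it, beside -0.06 for all genes tested in both cases. Lgr5 and Sp5 did not reach a scaled value of 1 in 6 samples and were not tested in these fits. In bulk tissue, fewer cells that express a gene and less RNA per cell cannot be told apart.

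**Figure D1:**
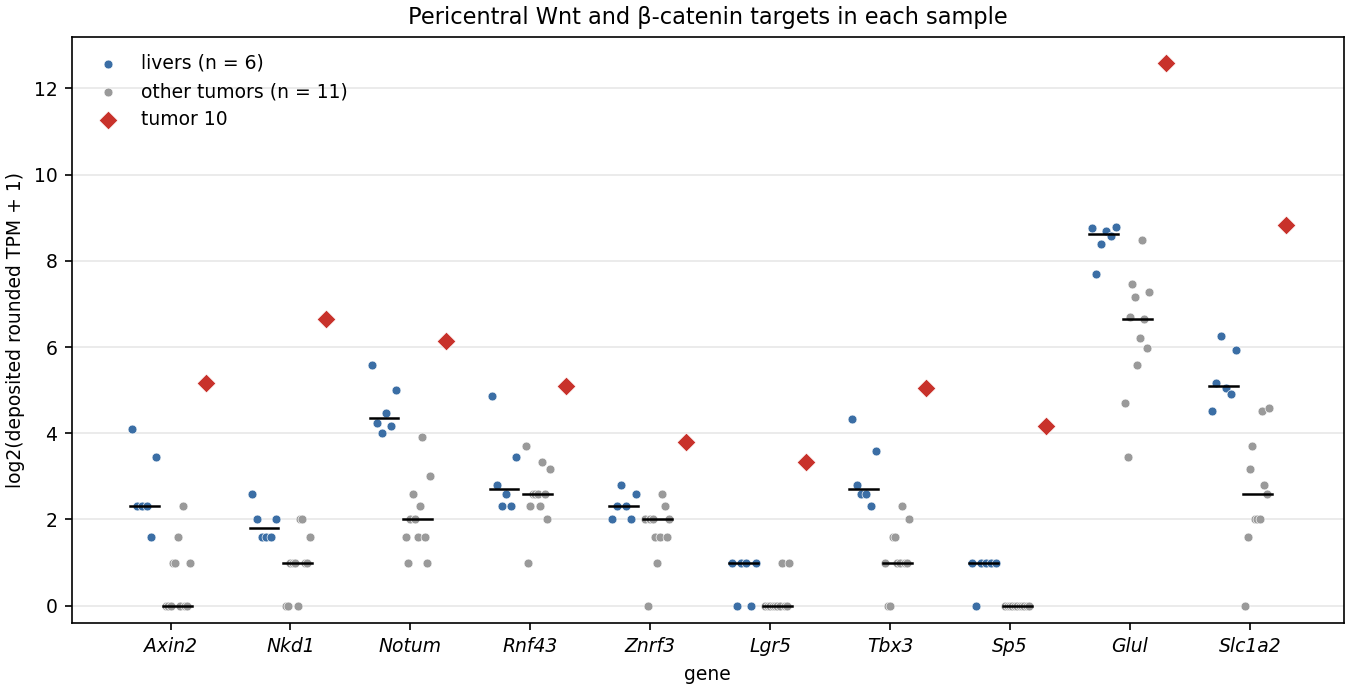
Each point is 1 sample, with log2(rounded TPM + 1) on the vertical axis, for 6 livers (blue), 11 tumors (grey) and tumor 10 (red diamond), and black lines mark group medians. Tumor 10 lies above every other sample for all 10 genes. The other tumors lie mostly below the livers, except in Rnf43 and Znrf3, and in Lgr5 both groups are at 0 or 1 TPM and overlap.

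The inhibitors that restrain the pathway were led by Notum (chr11:120653788-120661175, minus strand), a secreted enzyme that strips Wnt ligands of their lipid. Its TPM were 15, 19.5 and 47 in livers (lowest, median and highest), 1, 3 and 14 in the 11 tumors and 70 in tumor 10. On scaled values all 11 tumors lay below the lowest liver, and the median of the 11 was 0.143 of the liver median. The log2 fold change was -2.03 ± 0.50 (SE, 12 tumors and 6 livers, limma adjusted p = 0.00637) and -2.35 ± 0.30 without tumor 10 (limma adjusted p = 1.37e-05). Every tumor lay below every liver in 1.26% of genes when tumor 10 was left out. Notum was the one gene whose call held whichever single sample was left out, with limma adjusted p between 1.37e-05 and 0.0186.

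Axin2 (chr11:108920349-108950783, plus strand), a scaffold of the complex that degrades β-catenin and a common readout of the pathway, was at 2, 4 and 16 TPM in livers. In the 11 tumors it was at 0, 0 and 4 TPM and listed above 0 in 5 of them, and in tumor 10 it was at 35 TPM. On scaled values 10 of the 11 tumors lay below the lowest liver, and tumor 8 did not. The log2 fold change was -1.63 ± 0.56 (limma adjusted p = 0.0472), and the call was lost in 22 of 41 alternatives, among them the omission of any liver but liver 5 and of any tumor but tumors 8 and 10. Without tumor 10 it was -1.99 ± 0.34 (limma adjusted p = 0.000274).

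Nkd1 (chr8:88521354-88594884, plus strand), which binds Dishevelled and dampens Wnt signaling, was low in livers (2, 2.5 and 5 TPM) and in the 11 tumors (0, 1 and 3 TPM). Tumor 10 had 100 TPM, 37.8 times the liver median and 24.1 times the highest of the other tumors after scaling. This gap of 4.24 on the log2(scaled value + 1) scale over the highest of the other 17 samples was the fourth largest of all 28442 genes. With tumor 10 among the tumors the log2 fold change of -0.40 ± 0.64 did not pass (limma adjusted p = 0.731). Without it Nkd1 was lower (log2 fold change -0.86 ± 0.29, limma adjusted p = 0.0434), though tumors 7 and 8 were within the range of livers. That call was lost when liver 1 was also left out (-0.75 ± 0.31, limma adjusted p = 0.0967).

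Rnf43 and Znrf3 encode membrane ubiquitin ligases that remove Frizzled receptors from the cell surface, and neither passed limma's test between tumors and livers. Rnf43 (chr11:87662722-87735539, plus strand) was at 4, 5.5 and 28 TPM in livers, 1, 5 and 12 TPM in the 11 tumors and 33 TPM in tumor 10. None of the 11 tumors was below the lowest liver after scaling, and the 28 TPM came from liver 1. Its log2 fold change was -0.15 ± 0.34 (limma adjusted p = 0.824), and 0.15 ± 0.32 without liver 1 (limma adjusted p = 0.794). Znrf3 (chr11:5276324-5444847, minus strand) was at 3, 4 and 6 TPM in livers, 0, 3 and 5 TPM in the 11 tumors and 13 TPM in tumor 10. Its log2 fold change was -0.46 ± 0.33 with tumor 10 (limma adjusted p = 0.376) and -0.63 ± 0.27 without it (limma adjusted p = 0.114). In Znrf3, 4 of the 11 tumors lay below the lowest liver after scaling.

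Lgr5 (chr10:115450311-115587780, minus strand), a receptor for R-spondins that protects Frizzled from these ligases, was at the limit of the rounding in all samples but 1. It was at 0, 1 and 1 TPM in livers, at 0, 0 and 1 TPM in the 11 tumors, and at 9 TPM in tumor 10, or 7.8 times the highest liver after scaling. When genes were tested without a filter on low values, the difference without tumor 10 was -0.45 ± 0.19 (limma adjusted p = 0.127).

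Tbx3 and Sp5 encode transcription factors. Tbx3 (chr5:119670669-119684724, plus strand), a T-box repressor, was at 4, 5.5 and 19 TPM in livers, 0, 1 and 4 TPM in the 11 tumors and 32 TPM in tumor 10. As in Notum, all 11 tumors lay below the lowest liver after scaling. The log2 fold change was -1.54 ± 0.49 (limma adjusted p = 0.0304), and -1.85 ± 0.29 without tumor 10 (limma adjusted p = 0.000148). With all 12 tumors the call was lost without liver 1 (limma adjusted p = 0.0726), liver 2 (0.0537) or liver 6 (0.076).

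Sp5 (chr2:70474923-70477729, plus strand), a zinc-finger factor whose upstream stretch with 2 TCF/LEF words is printed above, was listed at 0 in all 11 tumors and at 0 or 1 TPM in livers, where only liver 2 was at 0. In tumor 10 it was at 17 TPM, 13.3 times the highest liver after scaling. Tested without a filter on low values and without tumor 10, it was lower (log2 fold change -0.77 ± 0.13, limma adjusted p = 0.000368), where 7.97% of 15400 genes were called lower. That difference lies between TPM that round to 0 and TPM that round to 1.

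Glul and Slc1a2 mark the glutamine metabolism of the pericentral layer. Glul (chr1:153899944-153909723, plus strand), glutamine synthetase, had the highest TPM of the 10 genes in every group, at 206, 394 and 441 in livers and 10, 99 and 356 in the 11 tumors. In tumor 10 it reached 6144 TPM, 16 times the liver median, 12.7 times the highest liver and 61.0 times the median of the other tumors after scaling. Of the 11 tumors 10 lay below the lowest liver, and tumor 8 did not. The log2 fold change was -1.44 ± 0.73 with tumor 10 (limma adjusted p = 0.187) and -1.94 ± 0.39 without it (limma adjusted p = 0.00143), so that 1 of 12 tumors decided the call.

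Slc1a2 (chr2:102658659-102790784, plus strand), a transporter that takes up glutamate and with the stretch before its internal RefSeq start printed above, was at 22, 33.5 and 75 TPM in livers. It was at 0, 5 and 23 TPM in the 11 tumors and at 456 TPM in tumor 10, 12.2 times the liver median and 20.3 times the highest of the other tumors after scaling. After scaling 10 of the 11 tumors were below the lowest liver, with tumor 12 the exception. Its log2 fold change was -1.95 ± 0.78 with tumor 10 (limma adjusted p = 0.0868) and -2.44 ± 0.49 without it (limma adjusted p = 0.00127).

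**Figure D2:**
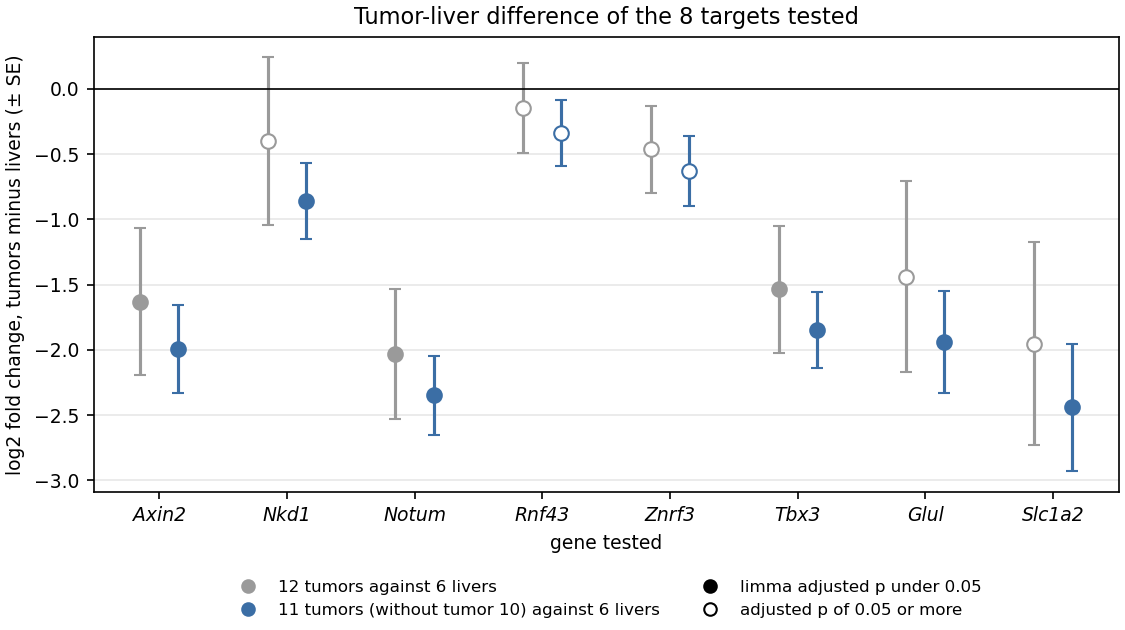
The log2 fold change of tumors minus livers (± SE, limma) is plotted for the 8 genes tested, with all 12 tumors (grey) and without tumor 10 (blue), and filled points have an adjusted p under 0.05. Leaving out tumor 10 moved every gene down and raised the number of filled points from 3 to 6.

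Single genes were also compared by an exact permutation test of the difference in mean log2 value, two-sided and unadjusted. With 12 tumors and 6 livers (18564 arrangements of the labels) the exact permutation p was 0.00302 for Notum, 0.012 for Tbx3, 0.0185 for Axin2, 0.0407 for Slc1a2 and 0.0999 for Glul. Without tumor 10 (12376 arrangements) the exact permutation p of Notum and Tbx3 was 8.08e-05, the smallest that so many arrangements can give, that of Znrf3 was 0.031 and that of Rnf43 was 0.235. The p without tumor 10 leave out the highest tumor of each gene, set apart with earlier results known, and so lean toward small values.

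The 11 tumors were not alike in these genes. Tumor 8 was the highest of them in Glul, Axin2, Tbx3, Notum and Znrf3, and it was at or above the lowest liver in 5 of the 8 genes tested. In tumor 8 Glul was at 356 TPM, within the range of livers, Notum at 14 and Slc1a2 at 22. Tumor 1 had the lowest Glul of the 11 after scaling (25 TPM as deposited), with Slc1a2 and Axin2 at 0 and Notum at 2, while its 12 TPM of Rnf43 were the highest of the 11. The tumors of 1 mouse differed as well. Tumor 12 had more than tumor 11 in Glul (153 and 62 TPM), Slc1a2 (23 and 5 TPM), Notum (7 and 1 TPM) and Rnf43 (8 and 3 TPM), a comparison of 1 sample with 1 and without a test. Siglece took 24.4% of the total in tumor 12 and 53.4% in tumor 11. After scaling the values were 130 and 78.5 in Glul, 19.5 and 6.33 in Slc1a2, 5.94 and 1.27 in Notum and 6.79 and 3.8 in Rnf43. Znrf3 was nearly equal (2.545 and 2.533). The names of these tumors also carry different tags, E20 and E19.

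Among livers, liver 1 had the highest deposited values in 5 of the 8 genes tested, with Axin2 at 16, Notum at 47, Tbx3 at 19, Rnf43 at 28 and Nkd1 at 5 TPM, but the lowest Slc1a2, at 22. Without liver 1 and tumor 10, limma called 5 of 8 genes lower (Glul, Axin2, Tbx3, Notum and Slc1a2), against 10.2% of 11292 genes.

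**Figure D3:**
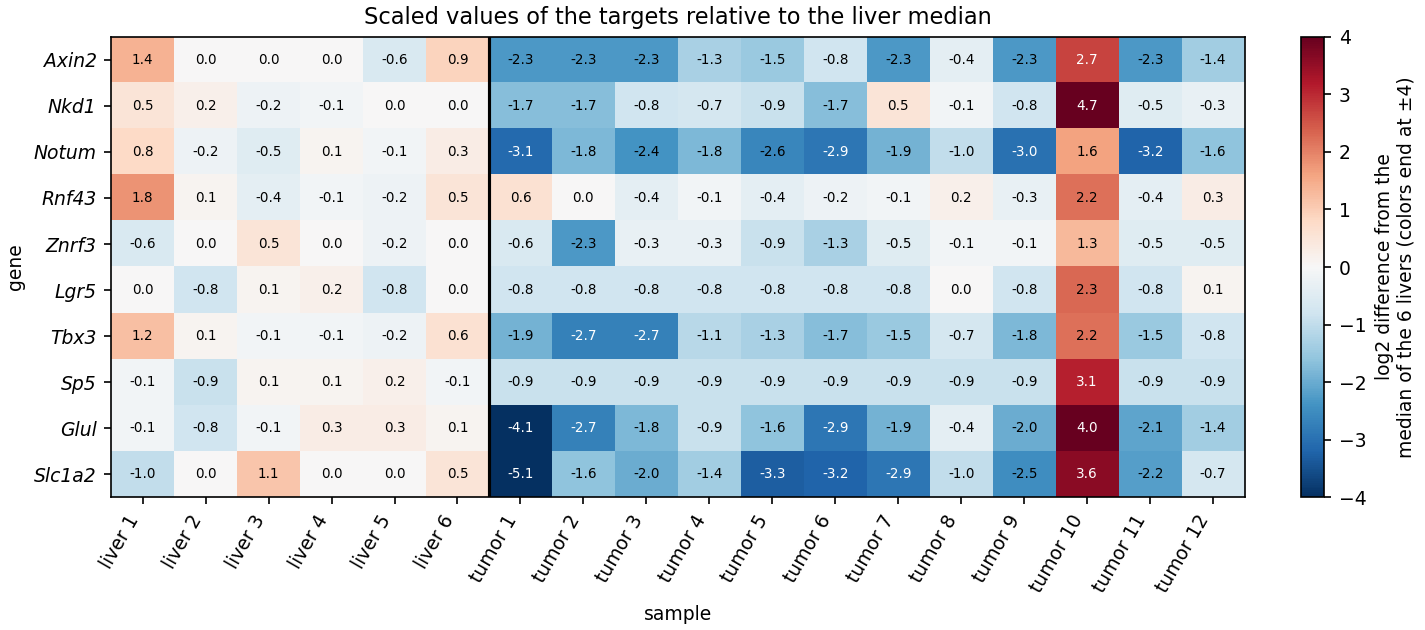
Each cell gives the log2(scaled value + 1) of 1 sample minus the median of the 6 livers, for 10 genes and 18 samples, with red above and blue below that median. Tumor 10 is red in every gene, tumor 8 is the palest of the other tumors, and liver 1 stands out among livers in Axin2, Tbx3 and Rnf43.

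Whether the targets vary together between tumors was asked with Axin2 as the reference, over log2 scaled values, which share their scaling factors. Over 12 tumors 6 of 7 relations had a permutation p under 0.05 after adjustment for 7 relations, from r = 0.813 for Slc1a2 (permutation p = 0.0132, adjusted 0.0231, rho = 0.511, permutation p = 0.0915) to r = 0.921 for Tbx3 (permutation p = 0.00097, adjusted 0.00679, rho = 0.789, permutation p = 0.00387). That count is for Pearson r. Tumor 10, set apart with earlier results of these data known, was the highest tumor in each of these genes. The p over 12 tumors are therefore not a separate test. For rho only Tbx3 passed after adjustment (permutation p adjusted to 0.0271), and the next were Glul and Notum, each at 0.0845. The relations by r rest on tumors 10 and 8, without which r was between -0.17 and 0.533 (n = 10). Over the 11 tumors other than tumor 10 none of the 7 passed after adjustment, and 1 had an unadjusted permutation p under 0.05. That one was Tbx3, with r = 0.654 (permutation p = 0.0308, adjusted 0.216) and rho = 0.72 (permutation p = 0.0171, adjusted 0.12).

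Of 11700 genes, those most like Axin2 over these 11 tumors included Wfdc1 (r = 0.972), Gm3704 (0.901), Pla2r1 (0.866), Rhob (0.865), Slc25a51 (0.858), Carmn (0.844) and 4833431D13Rik (0.837), where the median r of all genes was 0.0968. These r are a description, and most of the genes were at a few TPM with many values at 0. Wfdc1, Pla2r1, Carmn and 4833431D13Rik were at 0 in tumor 10, while Rhob was at 47 TPM there.

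The sample names carry 1 of 2 tags, E19 (2 livers and 7 tumors, tumor 10 among them) or E20 (4 livers and 5 tumors), whose meaning the labels do not give. In E20 samples alone limma called the same 3 genes as with all samples, Axin2, Tbx3 and Notum, where 1.11% of 10312 genes were lower. In E19 samples alone limma called none of the 6 genes tested, with 0 at an unadjusted p under 0.05, where 5.49% of 10168 genes were lower. Without tumor 10, E19 samples gave 4 of 6 lower (Glul, Tbx3, Notum and Slc1a2), where 7.52% of 9936 genes were lower. The log2 fold change of Glul was -1.99 (limma adjusted p = 0.00163) in E19 samples without tumor 10 and -2.09 (limma adjusted p = 0.0929) in E20 samples. The difference between tags was itself tested with an interaction term, and none of the 11708 genes tested passed (0 at an adjusted p under 0.05, 348 unadjusted, none of the 8 targets among them).

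Further genes of the pericentral layer were read from a list of 13, all tested. Of these, limma called 6 lower in the 12 tumors and none higher, and 9 lower without tumor 10. Over all genes tested, 9.28% were called lower with 12 tumors and 9.12% without tumor 10. The median log2 fold change of the 13 was -1.12, and -1.46 without tumor 10. Cyp2e1, the cytochrome P450 that metabolizes ethanol, was at 1231, 2116 and 2987 TPM in livers, 37, 213 and 1144 TPM in the 11 tumors and 2486 TPM in tumor 10 (log2 fold change -2.82 ± 0.58, limma adjusted p = 0.00174). Oat, ornithine aminotransferase, was at 80, 106 and 173 TPM in livers, 1, 8 and 36 TPM in the 11 tumors and 386 TPM in tumor 10 (log2 fold change -2.86 ± 0.66, limma adjusted p = 0.00432). Cyp1a2, a P450 that metabolizes caffeine, was lower in tumors (-2.36 ± 0.60, limma adjusted p = 0.00804) with 296 TPM in tumor 10, as was Rgn, regucalcin (-2.07 ± 0.58, limma adjusted p = 0.0144), with 612 TPM there.

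The other genes called lower were Cyp27a1, a mitochondrial P450 of bile acid synthesis (-1.67 ± 0.34, limma adjusted p = 0.00141), and the nuclear receptor Nr1i3 (-2.02 ± 0.49, limma adjusted p = 0.00585). All 6 calls held whichever single sample was left out.

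In deposited values tumor 10 was within the range of livers in Cyp2e1, above it in Oat, Cyp1a2 and Rgn, and below it in Cyp27a1 and Nr1i3. Cyp27a1 was at 142 TPM in tumor 10 against 165 to 310 TPM in livers, though within their range after scaling, and Nr1i3 was at 22 TPM against 44 to 192 TPM. The ammonium transporter Rhbg and the secreted protein Lect2 were also far above the livers in tumor 10, and neither passed the test over 12 tumors. Rhbg was at 2, 3 and 8 TPM in livers, 1, 2 and 4 TPM in the 11 tumors and 69 TPM in tumor 10 (limma adjusted p = 0.997, and 0.875 without liver 1, which had the 8 TPM). Lect2 was at 33, 66 and 99 TPM in livers, 4, 28 and 68 TPM in the 11 tumors and 676 TPM in tumor 10, and it was lower without tumor 10 (-1.18, limma adjusted p = 0.013). Tumor 10 lay at least 4-fold above the median of the other tumors in 7 of the 8 targets tested (Znrf3 was the exception) and in 10 of the 13 further pericentral genes, against 1.23% of all genes tested. As tumor 10 and the lists were chosen with earlier results known, these counts are a description and not a test.

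Periportal genes lay on the other side in tumor 10. Of 12 tested, 9 were at least 4-fold below the median of the other tumors in tumor 10, against 1.28% of all genes, and none was 4-fold above. This count too describes a tumor set apart with earlier results known, and is not a test. Gls2, the liver glutaminase that breaks glutamine down, was at 83, 96.5 and 131 TPM in livers, 5, 59 and 71 TPM in the 11 tumors and 0 in tumor 10. Cyp2f2, a periportal P450, was at 222, 570 and 618 TPM in livers, 17, 85 and 224 TPM in the 11 tumors and 0 in tumor 10. Cps1, the first enzyme of the urea cycle, was at 883 TPM or more in livers, between 47 and 1028 TPM in the 11 tumors and at 3 TPM in tumor 10.

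Between tumors and livers, periportal genes were called in both directions. With 12 tumors, limma called 4 periportal genes lower (Hal -1.69 ± 0.49, Cyp2f2 -2.80 ± 0.78, Ass1 -1.83 ± 0.58 and Asl -1.79 ± 0.25) and 1 higher (Cdh1, 2.77 ± 0.22), with a median log2 fold change of -1.42. Without tumor 10 it called 6 lower and 2 higher, with a median of -0.91. Over all genes tested with 12 tumors, 9.28% were called lower and 9.77% higher. Without tumor 10, 9.12% were called lower and 1114 of 11395 genes higher. With 12 tumors the call of Ass1 was lost without liver 2, 3, 4, 5 or 6 (limma adjusted p up to 0.072), while that of Cyp2f2 held without liver 1, its lowest liver (-3.08 ± 0.83, limma adjusted p = 0.0108).

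**Figure D4:**
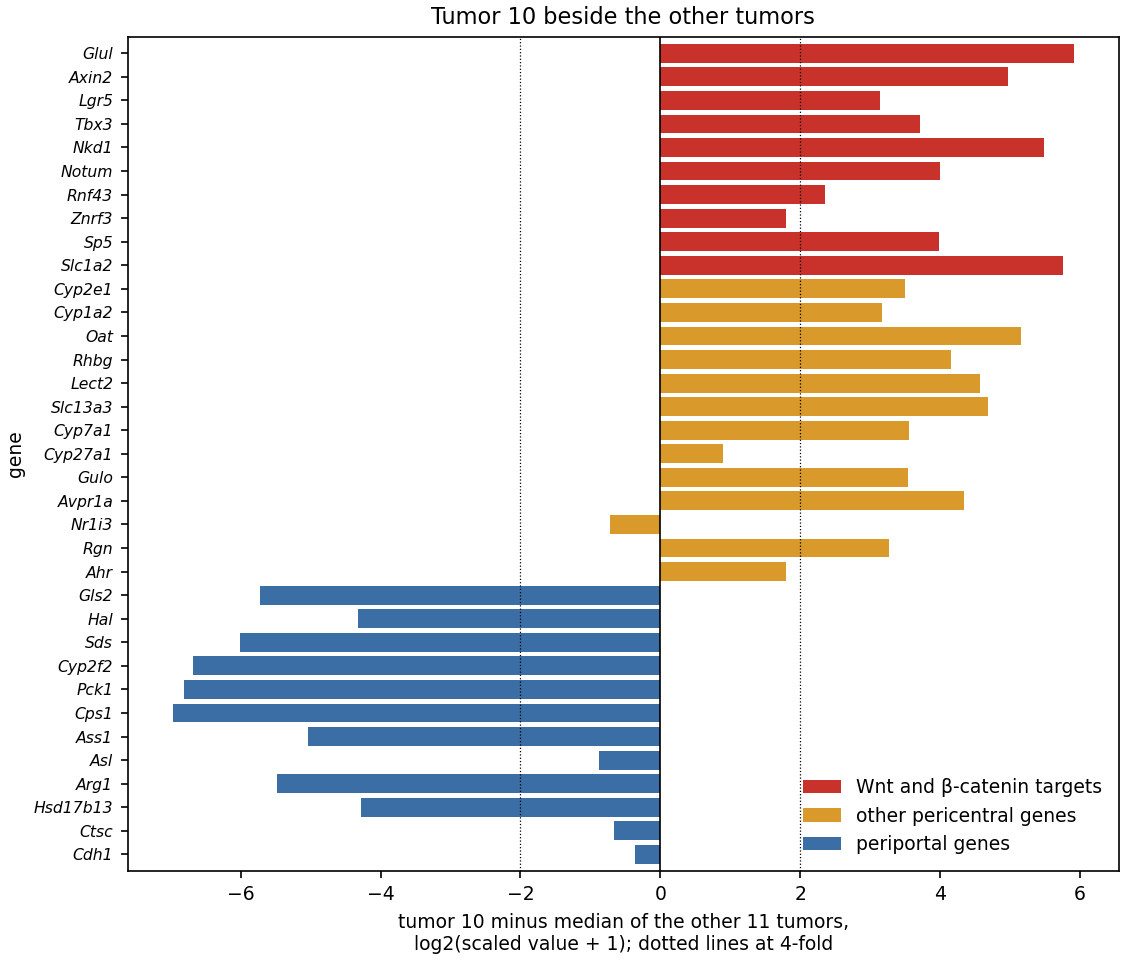
Bars give tumor 10 minus the median of the other 11 tumors in log2(scaled value + 1), for the 10 targets (red), 13 further pericentral genes (orange) and 12 periportal genes (blue), with dotted lines at 4-fold. All targets and all pericentral genes but Nr1i3 point to the right, and all periportal genes point to the left.

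The pathway's own parts were less uniform. Their counts stand beside 9.28% of all genes tested called lower in the 12 tumors and 9.77% called higher. Of 21 genes for Wnt ligands and their secretion 11 were listed at 0 in every sample and 4 could be tested, of which Wnt5b (-0.96 ± 0.29, limma adjusted p = 0.0238) and Porcn, which attaches the lipid to Wnt (-0.82 ± 0.25, limma adjusted p = 0.024), were lower in tumors. The call of Wnt5b was lost without liver 1, 2 or 5 and that of Porcn without liver 2, 3 or 4 (limma adjusted p up to 0.0646 and 0.0753). Wnt2 and Wnt9b, ligands of the central vein, were too low for a test. Wnt2 was at 1 TPM in each liver, at 0 or 1 TPM in the 11 tumors and at 0 in tumor 10, and Wnt9b was at 0 or 1 TPM in livers and in the 11 tumors and at 0 in tumor 10. Rspo3 was at 1, 2 and 4 TPM in livers, 0, 0 and 2 TPM in the 11 tumors and 0 in tumor 10, and it was lower in tumors (log2 fold change -1.15 ± 0.24, limma adjusted p = 0.00177). Rspo3 passed the filter on low values in 14 of 18 fits with a single sample left out and was called in each of the 14. Without liver 1, which had the 4 TPM, it failed the filter, and without a filter the difference was -1.03 ± 0.22 (limma adjusted p = 0.00271). Tumor 10 was listed at 0 in all 3 of these genes, as were tumors 1, 2, 5, 6 and 11.

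Of 12 receptor genes tested, Fzd3 was higher (1.42 ± 0.38, limma adjusted p = 0.012, 0 in every liver and in tumor 10) and Ryk lower (-0.61 ± 0.17, limma adjusted p = 0.016, lost without liver 3 at 0.0581). With every liver at 0, Fzd3 passed the filter on low values only through tumors. The filter thus admitted it only as a gene higher in tumors, and its p is no separate test. Fzd3 passed the filter in 13 of 18 fits with a single sample left out and was called in each of the 13. Over all genes tested, 9.77% were called higher and 9.28% lower, so the receptors were called about as often as other genes. Of 2 secreted or membrane inhibitors tested, none passed (0 of 2, Dkk3 limma adjusted p = 0.575, Kremen1 0.216). Sfrp2, which binds Wnt ligands, was at 15 TPM in tumor 10 and at 0 in the other 17 samples.

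Ctnnb1, the β-catenin gene, was at 53, 59 and 84 TPM in livers, 9, 89 and 118 TPM in the 11 tumors and 105 TPM in tumor 10. It was higher in tumors by 0.43 ± 0.15 (limma adjusted p = 0.043), a call that held in 8 of 18 fits with a single sample left out. It was lost without liver 2, 3 or 4 or without tumor 3, 4, 5, 7, 9, 10 or 11 (limma adjusted p up to 0.104, and 0.0604 without tumor 10). None of the other 10 genes of the destruction complex and its regulators was called. Mutations of Ctnnb1 or Apc cannot be read from these values.

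Of 8 nuclear partners of β-catenin tested, Pygo1 was higher (1.07 ± 0.25, limma adjusted p = 0.00503), and Bcl9 (-0.96 ± 0.24, limma adjusted p = 0.00676) and Bcl9l (-1.14 ± 0.22, limma adjusted p = 0.00097) were lower. Pygo1 was listed at 0 in every liver and passed the filter on low values only through tumors, so its p is no separate test either. Over all genes tested, 9.77% were called higher and 9.28% lower. Lef1, at 0 or 1 TPM in livers and 0 in the 11 tumors, was at 8 TPM in tumor 10. Of 5 targets known from other tissues that could be tested, Ccnd1, cyclin D1, was higher in tumors (1.83 ± 0.49, limma adjusted p = 0.0107), with 3, 36 and 59 TPM in the 11 tumors and 2, 6 and 110 TPM in livers, so that liver 1 lay above all tumors, and by 2.47 ± 0.32 without that liver (limma adjusted p = 1.39e-05). Apcdd1, another inhibitor that Wnt induces, was at 49 TPM in tumor 10 and at 0 or 1 TPM elsewhere, and Tnfrsf19 was at 28 TPM in tumor 10, above 5 TPM in the highest liver and 4 TPM in the highest of the other tumors.

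Of the 10 genes 7 overlap annotated genes of the opposite strand (Notum, Tbx3, Axin2, Lgr5, Slc1a2, Glul and Rnf43), and the strand setting of the quantification is not given in the sources used here, so that reads in the overlap cannot be told apart. Notumos shares 2019 bases with Notum and was at 8 TPM in tumor 10, at most 1 TPM in livers and 0 in the 11 tumors. Tbx3os1 shares 697 bases with Tbx3 and was at 10 TPM in tumor 10, at most 3 TPM in livers and at most 2 TPM in the 11 tumors. Teddm2, which shares 285 bases with Glul, was at 2 TPM in tumor 10 and 0 elsewhere. A930009A15Rik, within Lgr5, and Gm13872, within Slc1a2, were at 0 in all samples. Those that overlap Axin2 (Gm11670, 2706 bases) and Rnf43 (Gm25968, 100 bases), and Myadml2os, which shares 3274 bases with Notum, were not analysed here. On the same strand 1110028F11Rik lies within Rnf43 and was at 42 TPM in tumor 10, at most 32 TPM in livers and at most 9 TPM in the 11 tumors, so that reads may be divided between them.

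Markers of other cells were summed to see whether they moved with tumor 10. The summed TPM of 4 mast cell markers were 55 in tumor 10, 0 in livers and at most 2 in the 11 tumors. Those of 5 stellate cell and fibroblast markers were 136 in tumor 10, 58 to 70 in livers and 7 to 140 in the 11 tumors, with Lrat at 0 in tumor 10. These 5 genes went in both directions. In tumor 10 Col1a1, Col1a2 and Col3a1 were at 62, 31 and 33 TPM, against at most 5, 4 and 5 TPM in livers. Dcn was at 10 TPM in tumor 10, against 41 to 55 TPM in livers. The summed TPM of 5 endothelial markers, the cells that supply Wnt, were 23 in tumor 10, 18 to 43 in livers and 29 to 68 in the 11 tumors, and in tumor 10 none of the 5 was at 0. The mast cell sum of tumor 10 was thus above all other samples, while its endothelial sum was within the range of livers and below the 11 tumors. The 5 endothelial genes did not go together. In tumor 10 Pecam1 and Cdh5 were each at 8 TPM, above the livers (at most 4 and 5 TPM). Kdr, Stab2 and Lyve1 were at 3, 1 and 3 TPM there. The summed TPM of 4 macrophage markers were 43 in tumor 10, 29 to 61 in livers and 4 to 58 in the 11 tumors, with Clec4f at 0 in tumor 10. Those of 4 proliferation markers were 26 in tumor 10, 0 to 2 in livers and 2 to 29 in the 11 tumors. Those of 5 cholangiocyte markers, nearly all from Spp1, were 90 in tumor 10, 5 to 16 in livers and 60 to 716 in the 11 tumors, and Krt7, Epcam and Cftr were at 0 in tumor 10. Those of 5 lymphocyte markers were 8 in tumor 10, 0 to 3 in livers and 0 to 5 in the 11 tumors. The part of these cells in the values of the targets was not tested.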

How the data were processed

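Poly-A RNA of 6 livers and 12 tumors was sequenced paired end on NovaSeq X. Per the study's methods, alignment was to GRCm38, Salmon gave the counts of each gene, and the authors converted these to TPM. The deposited table is named for counts, but its whole numbers sum to similar totals in every sample and equal the TPM that the study lists for some genes once those are rounded, so its values were treated as a score, namely rounded TPM. The rounding is not described in the sources used here. The submitters' processing notes also name edgeR, without a version or role. No reads per value are kept, so tests for log values were used in place of tests for counts. Samples and ages came from the labels and the study's sample list. For 2 tumors (3 and 10) a digit of the mouse number differs between these, and they were matched by tumor number and tag.

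Each sample was divided by its total times an unweighted trimmed-mean-of-M-values factor (30% of M and 5% of A values trimmed). "Scaled" values are these. Genes that reached a scaled value of 1 in 6 or more samples were fitted on log2(scaled value + 1) with limma 3.58.1 (trend in the prior variance, R 4.3.3), so fold changes of low genes are understated. Benjamini-Hochberg adjustment ran over all 11708 genes tested, with a threshold of 0.05, and SE are limma's moderated ones. On simulated data for tumors against livers, 195 of 199 changed genes were called, with 10 unchanged genes called among 11493 tested. Changes were placed only in genes above a set mean level, and simulated tumors had the spread of the livers. The changes were also larger than those of most targets, so these counts do not give the sensitivity for the targets. Correlations used 100000 permutations. Python 3.11.15, numpy 2.4.6, scipy 1.17.1, pandas 2.3.3 and matplotlib 3.10.9 were used.

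The 10 genes, the gene lists and the setting apart of tumor 10 were chosen with earlier results of these data known. Named from the other lists were the genes called, at most 4 per list by size of change, and a fixed few (Ctnnb1, Wnt2, Wnt9b, Rspo3, Cyp2e1, Cyp1a2, Oat, Rhbg, Lect2, Gls2, Cyp2f2 and Notumos), together with the 8 genes most like Axin2, of which 1 is not reported here. Cps1, Sfrp2, Lef1, Apcdd1, Tnfrsf19, Tbx3os1, Dkk3, Kremen1 and Siglece were named after their values were seen. Positions are those of GENCODE M21 on GRCm38, promoter sequences those of RefSeq on GRCm38.p6. Alternatives covered scaling, pseudocount, filter, sample weights, tag, age, the replicate number, the mouse with 2 tumors and each sample left out, and those that leave out tumor 10 together with another choice, or a sample for genes other than the 10, were chosen after seeing the data.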

Additional observations from a re-analysis of the deposited data

Results flagged for a closer look

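In 21 gene groups of 6 livers, the gap between the highest or lowest liver and the next, as a share of the whole range, was compared with Dixon's critical value, which chance passes in about 1 of 20 groups, or 1.05 groups here. It was passed in 6. Liver 1 was the highest liver by this measure in Nkd1 (0.667, 5 TPM against 2 to 3), Rnf43 (0.75, 28 TPM against at most 10), Rspo3 (0.667, 4 TPM) and Rhbg (0.667, 8 TPM), and the lowest in Cyp2f2 (0.72, 222 TPM against a median of 570). Liver 2 was the only liver at 0 in Sp5 (1.0), where the others were at 1 TPM. In rounded values as low as these, 1 TPM can decide the measure. Without liver 1 the limma adjusted p was 0.0967 for Nkd1 (tumor 10 also left out), 0.794 for Rnf43, 0.875 for Rhbg, 0.0108 for Cyp2f2 and, without a filter on low values, 0.00271 for Rspo3.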

How the results depend on the processing

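Notum kept its direction and its call in 42 of 43 alternatives, Tbx3 in 37 of 43 and Axin2 in 19 of 41, and all 3 were lower in tumors in each alternative. Rnf43 turned to 0.27 in E19 samples alone and to 0.15 without liver 1, and was -0.35 without tumors 10 and 2 (limma adjusted p between 0.344 and 0.973 over its alternatives). The 3 targets and 2230 genes called with all samples became 1 target with Siglece left out and equal totals, 1341 genes without scaling, 5 targets and 4702 genes with sample quality weights, 0 targets (0 unadjusted) and 1344 genes in E19 samples, and 405 genes in E20 samples. With single samples left out, 1 to 6 targets and 1660 to 3207 genes were called (1 target without liver 1, 2 or 6, and 6 without tumor 10). Without tumor 10, 6 targets were called without scaling (1278 genes), with tag as a covariate, without tumor 2 or without tumors 11 and 12, 5 with a pseudocount of 0.1 or without liver 1, and 7 without a filter on low values, Sp5 among them. Of 7 relations with Axin2 by Pearson r, 6 passed over 12 tumors, 0 over 11 (1 unadjusted), and 1 over 11 without scaling. With the replicate block over livers and tumors 1 to 6, limma called 6 targets and 1359 genes, and the same 12 samples without it 6 targets and 1212 genes. Livers and tumors of equal number came from different mice, so the numbers are no pairing by animal. Deviations from the group mean had a mean r of 0.178 over 6 pairs of equal number and -0.0355 over unlike numbers. It was over 0.1 in 3 pairs, and 3 livers correlated best with their own number. Apart from number 3, both samples of a pair carried the same tag, so the numbers are not free of structure. The cause of these changes was not tested. Rounding to whole TPM limits the genes at a few TPM, among them Lgr5, Sp5, Axin2, Nkd1, Tbx3 and Znrf3.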

Other observations

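The genes that set tumor 10 furthest above the other 17 samples, chosen after their values were seen, were ranked by the gap to the highest of these on the log2(scaled value + 1) scale over 28442 genes. The widest gap was that of Pnliprp1, a pancreatic lipase-related gene, at 91 TPM in tumor 10 and 0 in all others (6.33). Car4, a carbonic anhydrase, followed with 63 TPM against at most 1 (4.62), then Apcdd1 with 49 TPM against at most 1 (4.61), Nkd1 (4.24), Fbln1 with 40 TPM against at most 2 (3.90), Sfrp2 (3.81) and Glul (3.66), the seventh of 28442. Sp5 ranked 21 and Slc1a2 ranked 38, while Rnf43 ranked 576. These are values of 1 tumor, without a replicate or a test.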
